A study of Mus musculus with 4 samples.

Results

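The genes described here are 10 immediate early genes of the mouse: Egr1, Egr2, Egr3, Nr4a1, Nr4a2, Ier2, Ier3, Btg2, Dusp1 and Zfp36. They were taken by the gene name printed on a 1-colour Agilent array, which carries 11 probes for them among 55681 probes in all, with 2 probes for Nr4a2 and 1 for each of the others. RNA came from the submandibular salivary gland of C57BL/6 mice aged 8 to 10 weeks, from cells separated by flow cytometry into stem cells (2 arrays) and non-stem cell epithelia (2 arrays). No treatment or genetic change is given for either group. The antigens used for the sort, the number of animals behind an array and the time from tissue to lysis are not stated in the labels. The p-values below therefore measure only the spread between these arrays, which may be technical.

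Immediate early genes are switched on within minutes of a stimulus, from transcription factors already present in the cell. Growth factors act on many of them through ERK kinases and serum response factor, which binds CArG boxes together with Elk factors. Signals that raise cAMP or calcium act through CREB at cAMP response elements. Egr proteins are zinc finger transcription factors, Nr4a proteins are orphan nuclear receptors, and Ier2 and Ier3 are small proteins tied to growth and survival. Btg2 slows proliferation and binds the CCR4-NOT deadenylase, Dusp1 removes phosphate from MAP kinases, and Zfp36 (tristetraprolin) binds AU-rich mRNAs and speeds their decay. Taking tissue apart for a sort is a well known stimulus for these genes, and both groups here were sorted.

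Promoters of 7 of the 10 genes were found by symbol in a RefSeq table (GRCm38.p6) that gives 250 bases before and 50 after each start site. The stretches below are shown because they hold the elements through which such genes are known to be induced. All run 5′ to 3′ on the gene's strand and end upstream of the start site of the window they were taken from. Egr2 has 5 annotated start sites, and both of its stretches lie downstream of another of them. In Egr2 and Zfp36 the capitals mark CArG boxes, and in Zfp36 and Nr4a1 also an Egr site (GCGTGGGCG or GCGGGGGCG on either strand). In Dusp1, Btg2, Nr4a1 and Nr4a2 capitals mark TGACG, the core of the cAMP response element, on either strand, and in Ier3 a match to the NF-kappaB site.
Egr2, first stretch: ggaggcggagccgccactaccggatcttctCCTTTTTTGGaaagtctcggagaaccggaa
Egr2, second stretch: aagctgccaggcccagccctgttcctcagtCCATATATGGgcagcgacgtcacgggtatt
Zfp36: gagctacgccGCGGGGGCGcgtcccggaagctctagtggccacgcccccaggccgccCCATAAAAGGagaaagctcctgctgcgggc
Dusp1: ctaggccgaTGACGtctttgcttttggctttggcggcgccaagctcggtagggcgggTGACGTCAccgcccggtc
Btg2: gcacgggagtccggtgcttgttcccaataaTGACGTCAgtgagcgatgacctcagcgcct
Nr4a1: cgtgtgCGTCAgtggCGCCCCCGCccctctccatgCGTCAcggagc
Nr4a2: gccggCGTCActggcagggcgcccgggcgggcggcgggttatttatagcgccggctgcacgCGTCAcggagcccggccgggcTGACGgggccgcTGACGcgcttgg
Ier3: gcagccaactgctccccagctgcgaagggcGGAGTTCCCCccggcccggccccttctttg

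The first Egr2 stretch lies at chr10:67537464-67537523 (plus strand) and the second at chr10:67537767-67537826 (plus strand). The Zfp36 stretch is chr7:28379257-28379343, that of Dusp1 chr17:26508598-26508672, of Btg2 chr1:134079292-134079351 and of Nr4a2 chr2:57124103-57124208, all on the minus strand. Those of Nr4a1 (chr15:101266771-101266816) and Ier3 (chr17:35821591-35821650) are on the plus strand. These positions are on GRCm38.p6, whereas the probe positions given further on are on mm9.

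Relative to the 75th percentile of each array, 4 of the 9 genes that could be tested were higher in stem cells (Egr1, Egr2, Dusp1 and Ier3), 2 were lower (Nr4a2 and Ier2), and 3 did not pass the threshold (Nr4a1, Btg2 and Zfp36). The test was limma on log2 signals, with p-values adjusted by Benjamini-Hochberg across the 17362 tested genes and called at 0.05. Over all genes tested, 14.4% were called higher and 16.7% lower. Egr3 was well above background on none of the 4 arrays and was not tested. The other 9 genes were above background on all 4 arrays, and none was saturated.

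The scale matters for these directions. Spike-in control RNAs stood higher in stem cells by a median log2 difference of 2.26 after the percentile shift. Whether each array received the same amount of them was not tested. With the arrays scaled on 7 spike-ins instead, the median of all genes moved by -2.27, and Egr2 was the 1 member of the 9 above 0, at 0.55 (limma adjusted p = 0.20). Each "higher" and "lower" below is relative to the 75th percentile of the array, and on the spike-in scale Egr1, Dusp1, Ier3, Nr4a1 and Zfp36 lay below 0.

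**Figure D1:**
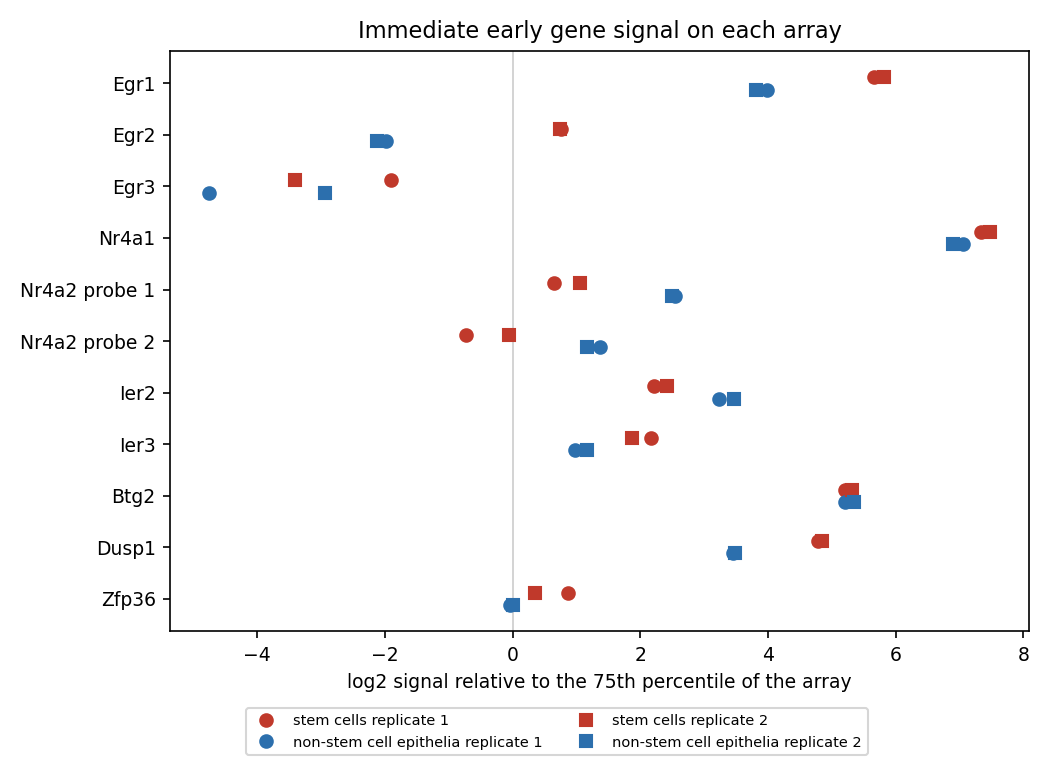
Log2 signal relative to the array's 75th percentile (x axis) for each of the 11 probes (y axis), with 1 point per array, red for stem cells and blue for non-stem cell epithelia. The red points lie to the right of the blue ones for Egr1, Egr2, Dusp1 and Ier3 and to the left for both Nr4a2 probes and Ier2. They also lie to the right for Nr4a1 and Zfp36, which did not pass the threshold. The points of Egr3, which are not above background, overlap, and on the spike-in scale only Egr2 of the tested genes lay above 0.

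The Egr genes encode transcription factors that share a zinc finger region binding GC-rich sites. Egr2 (Krox20), best known from Schwann cells and the hindbrain, had a log2 signal of 0.76 and 0.75 in stem cells against -1.98 and -2.13 in non-stem cell epithelia. The stem cell arrays were nearly equal, and the groups did not overlap. Egr2 was 7.03-fold higher in stem cells, a log2 difference of 2.81 ± 0.16 (SE, n = 2 arrays per group, limma adjusted p = 0.00035). The probe covers 67004798 to 67004857 of chromosome 10 (mm9, plus strand). Normexp background correction lowered the difference to 1.13, still past the threshold.

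Egr1, a factor induced by growth factors and by stress in most cell types, had log2 signals of 5.66 and 5.81 in stem cells against 3.99 and 3.81 in non-stem cell epithelia. Both stem cell arrays were above both others. It was 3.57-fold higher, with a log2 difference of 1.84 ± 0.16 (limma adjusted p = 0.0014). The Egr3 probe (chromosome 14 at 70479222 to 70479281, mm9) gave processed signals of 9.04 and 4.56 in stem cells against 3.13 and 9.29 in non-stem cell epithelia. These signals were not well above background, so no fold is given. Egr4, the remaining gene of the family, was likewise well above background on none of the 4 arrays. Nab2, a corepressor of Egr proteins and itself a known Egr target, differed by 0.58 ± 0.15 (limma adjusted p = 0.038), but not past the threshold when any 1 of the 4 arrays was left out (adjusted p of 0.11, 0.13, 0.12 and 0.18), with normexp (0.09, adjusted p = 0.67) or with the replicate block (adjusted p = 0.076). The related corepressor Nab1 differed by -0.32 ± 0.15 (limma adjusted p = 0.17).

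The Nr4a receptors act without a known activating ligand. Nr4a2 (Nurr1), known for its need in dopamine neurons, was lower in stem cells on both of its probes. The probe used for the gene, chromosome 2 at 56960699 to 56960758 (mm9, minus strand), had log2 signals of 0.65 and 1.06 in stem cells against 2.54 and 2.50 in non-stem cell epithelia. The groups did not overlap, and the stem cell arrays lay 0.41 apart. Nr4a2 fell by 1.67 ± 0.19 on the log2 scale (limma adjusted p = 0.0031), a level 3.17-fold lower.

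The second Nr4a2 probe, at 56959637 to 56959696, read -0.73 and -0.06 in stem cells against 1.37 and 1.17 in non-stem cell epithelia. Fitted on its own among all probes, it fell by 1.66 ± 0.26 (limma adjusted p = 0.0099), so both probes were lower in stem cells. The gene's first probe is the following oligonucleotide, printed with no capitals because no part of it is singled out.
Nr4a2 probe: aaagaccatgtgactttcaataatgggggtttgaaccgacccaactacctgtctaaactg

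Nr4a1 (Nur77), known from T cell activation and from hormone-stimulated tissues, was measured at 7.34 and 7.48 in stem cells against 7.06 and 6.90 in non-stem cell epithelia. The groups did not overlap, which was also true of 71% of all genes tested. The log2 difference was 0.43 ± 0.16, with a 95% interval of 0.03 to 0.83 before adjustment, and did not pass the threshold (limma adjusted p = 0.097). The probe covers 101105071 to 101105130 of chromosome 15 (mm9, plus strand). The difference passed with the percentile taken over detected probes (0.56, adjusted p = 0.034) and with an intensity trend and robust variances (adjusted p = 0.0015), and it was -0.03 with normexp. Whether Nr4a1 and Nr4a2 differ in their response was not tested. Nr4a3, the third receptor of the family, was well above background on none of the 4 arrays.

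The Ier genes went in opposite directions. Ier2, a nuclear protein of rapidly stimulated cells, read 2.22 and 2.42 in stem cells against 3.24 and 3.47 in non-stem cell epithelia. Every non-stem value was above every stem cell value. It fell by 1.03 ± 0.17 on the log2 scale (limma adjusted p = 0.010), a level 2.04-fold lower.

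Ier3 (also called IEX-1), which affects ERK signalling and cell death, read 2.16 and 1.87 in stem cells against 0.97 and 1.17 in non-stem cell epithelia. It was 1.93-fold higher, by 0.95 ± 0.18 (limma adjusted p = 0.015). Both calls rested on having both non-stem arrays. Without non-stem cell epithelia replicate 1 the adjusted p was 0.051 for Ier2 and 0.094 for Ier3, and without replicate 2 it was 0.085 and 0.078. Ier5, a relative of Ier2, fell by 1.46 ± 0.30 (limma adjusted p = 0.018), though just 1 of the stem cell arrays had it above background, and its call was lost without either non-stem array (adjusted p = 0.084 and 0.14) and with normexp (-0.32, adjusted p = 0.12). The Ier2 probe, on chromosome 8 at 87186214 to 87186273 (mm9, minus strand), is the sequence below, and that of Ier3 lies on chromosome 17 at 35959528 to 35959587 (plus strand).
Ier2 probe: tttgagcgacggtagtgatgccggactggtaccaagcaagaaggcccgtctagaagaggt

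Dusp1 (MKP-1) is a phosphatase made in response to MAP kinase activity that switches those kinases off. Its log2 signal was 4.78 and 4.85 in stem cells against 3.45 and 3.48 in non-stem cell epithelia. The replicates lay within 0.07 of each other in both groups, and the groups did not overlap. Dusp1 was 2.54-fold higher in stem cells, by 1.35 ± 0.15 (limma adjusted p = 0.0028). Its probe is on the minus strand of chromosome 17, with 11 of its 60 bases listed at 26642526 to 26642536 (mm9). Dusp6, a phosphatase that acts on ERK and reports its activity in many tissues, went the other way. It fell by 1.27 ± 0.17 (limma adjusted p = 0.0052), with 4.12 and 4.25 in stem cells against 5.59 and 5.33 in non-stem cell epithelia.

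Btg2, an antiproliferative gene and p53 target, was measured at 5.21 and 5.32 in stem cells against 5.21 and 5.34 in non-stem cell epithelia. The groups overlapped. The log2 difference was -0.01 ± 0.16, and its 95% interval, -0.40 to 0.39, leaves room for a change of up to about that size either way. With normexp it was -0.46 (limma adjusted p = 0.040). Its probe is on chromosome 1 at 135972094 to 135972153 (mm9, minus strand). Btg1, a close relative, differed by -0.18 ± 0.18 (limma adjusted p = 0.49).

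Zfp36 read 0.87 and 0.35 in stem cells against -0.04 and 0.00 in non-stem cell epithelia. The groups did not overlap, and the stem cell arrays differed from each other by 0.53, the widest replicate gap among the probes used for the tested genes. The log2 difference of 0.63 ± 0.22 did not pass the threshold (limma adjusted p = 0.079). It was 0.89 without stem cells replicate 2 and 0.36 without stem cells replicate 1. The related decay factors Zfp36l1 (0.94 ± 0.16, limma adjusted p = 0.010) and Zfp36l2 (1.14 ± 0.19, adjusted p = 0.0095) were higher in stem cells. For each of these relatives the call was lost without non-stem cell epithelia replicate 1 (adjusted p = 0.054) and without replicate 2 (adjusted p = 0.085).

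Zfp36 proteins bind the sequence written TATTTAT in DNA letters, and 3 of the 11 probes contain it, those of Zfp36 itself, Dusp1 and Ier3. It occurs in 1.03% of all 55681 probes. The stretches of these probes around it are shown with the match in capitals. The Zfp36 probe holds 2 matches, of which its stretch shows only the first. All 3 genes had a positive log2 difference at the 75th percentile scale, and that of Zfp36 did not pass the threshold. Before the shift the signals of Zfp36 were lower in stem cells and those of Ier3 overlapped.
Zfp36 probe stretch: gacgacttTATTTATtgtattaag
Dusp1 probe stretch: tttaccttTATTTATttttgtgta
Ier3 probe stretch: aacacagaTATTTATtacgattta

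The Zfp36 probe lies on chromosome 7 at 29161940 to 29161999 (mm9, minus strand). Of 12 mRNAs listed as known targets of Zfp36 decay, 9 were well above background on none of the 4 arrays. The 2 tested were the chemokine gene Cxcl1, which rose by 1.61 ± 0.15 (limma adjusted p = 0.0016), and Tnf, which fell by 0.95 ± 0.20 (adjusted p = 0.021). The call of Tnf was lost without non-stem cell epithelia replicate 2 (adjusted p = 0.12) and with normexp (-0.26, adjusted p = 0.19).

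**Figure D2:**
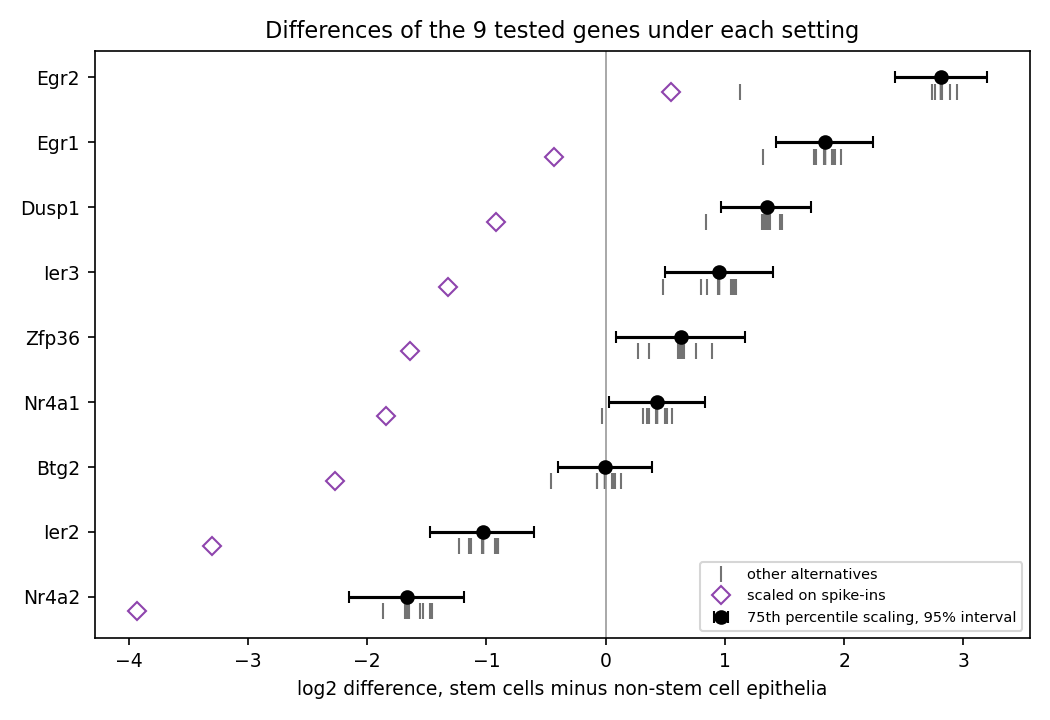
Log2 difference between stem cells and non-stem cell epithelia (x axis) for the 9 tested genes (y axis). Black points with bars are the estimates with 95% intervals from limma (n = 2 arrays per group), grey ticks are the other alternatives and open diamonds the spike-in scale, on which only Egr2 is above 0. The ticks of Egr2, Egr1, Dusp1 and Ier3 all lie above 0 and those of Ier2 and Nr4a2 below, while those of Nr4a1 and Btg2 cross it.

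The processed signals before any shift show how far the scale enters. Ier3 gave 151.7 and 177.7 units in stem cells against 164.2 and 159.3 in non-stem cell epithelia, and Dusp1 gave 933 and 1398 against 918 and 794. Those values overlap for Ier3 and not for Dusp1. For Btg2 they were 1257 and 1947 in stem cells against 3100 and 2875 in non-stem cell epithelia. Zfp36, with 62.3 and 61.75 against 81.8 and 71.2, was lower in stem cells before the shift. Nr4a1 gave 5524 and 8694 against 11220 and 8512, which overlap. Egr2, with 57.8 and 81.8 against 21.3 and 16.2, and Egr1, with 1725 and 2721 against 1334 and 998, were higher in stem cells before the shift as well. Nr4a2, with 53.4 and 101.3 against 488 and 403, was lower before it, as was Ier2 (159.1 and 260.4 against 793 and 787). The percentile used for the shift stood at 34.05 and 48.6 units in stem cells against 84.0 and 71.05 in non-stem cell epithelia.

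**Figure D3:**
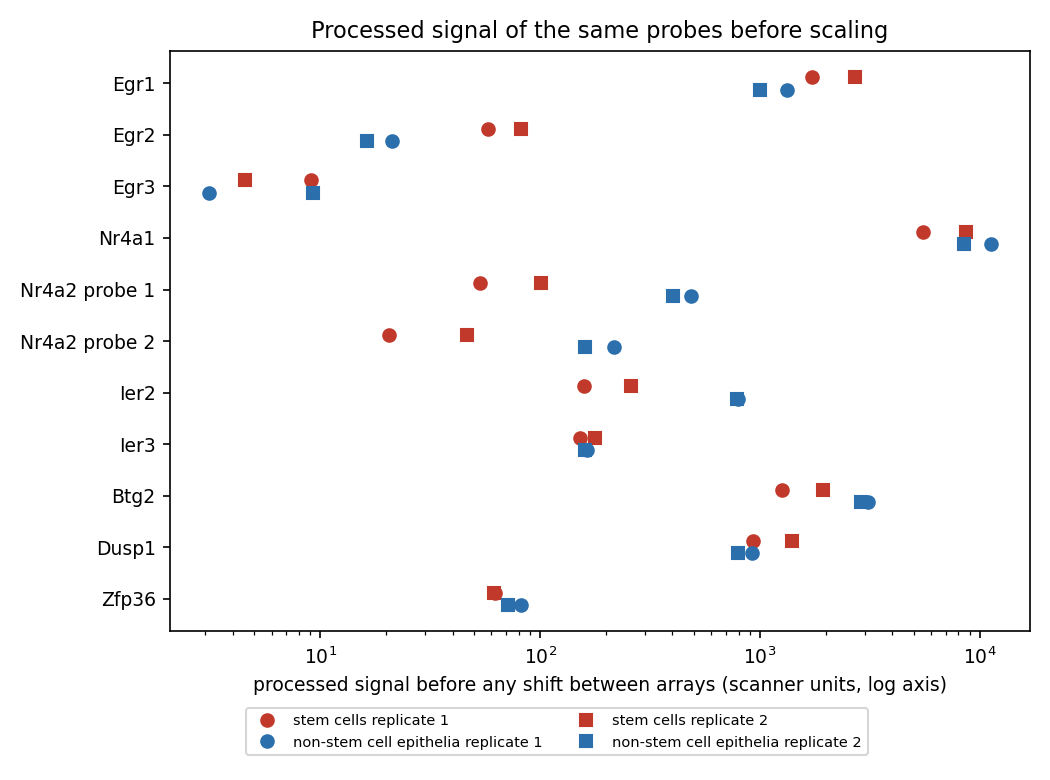
Processed signal in scanner units before any shift between arrays (x axis, log scale) for each of the 11 probes (y axis), with 1 point per array, red for stem cells and blue for non-stem cell epithelia. Egr1, Egr2 and Dusp1 are higher in stem cells here too and Nr4a2 and Ier2 lower, while the 4 points of Ier3 overlap. Zfp36 and Btg2 are also lower in stem cells here.

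Other early response genes were more often higher than lower in stem cells. Of 44 chosen by name, 40 were tested, 28 rose, 4 fell and 8 did not pass, with a median log2 difference of 1.21 against 0 over all genes tested. The share called over all genes was 14.4% higher and 16.7% lower, and the list was drawn up with earlier results of these data known. Gadd45b, a stress sensor, rose by 2.69 ± 0.15 (limma adjusted p = 0.00038), F3, the tissue factor gene, by 2.82 ± 0.17 (adjusted p = 0.00046), and Tnfaip3, an inhibitor of NF-kappaB, by 2.64 ± 0.17 (adjusted p = 0.00054). Csrnp1, a nuclear protein, rose by 2.53 ± 0.17 (adjusted p = 0.00062). Of the AP-1 genes, Jun rose by 1.42 ± 0.17 (adjusted p = 0.0032), and Fosb (2.20 ± 0.16) and Fosl2 (1.56 ± 0.16), named after their values were seen, were also past the threshold. Fos differed by 0.48 ± 0.15 (adjusted p = 0.061). It passed under quantile normalization (0.53, adjusted p = 0.038), the percentile over detected probes (0.61, adjusted p = 0.027), the filter on all 4 arrays (adjusted p = 0.034) and the intensity trend (adjusted p = 0.0012), and it was 0.01 with normexp.

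The 4 that fell were Ier5, Crem, Phlda1 and Junb, of which the last 3 were named after their values were seen. Crem, like Ier5, was above background on just 1 of the stem cell arrays. With the filter on all 4 arrays, 28 were higher and 2 lower, as with the mean of a gene's probes. Without a filter on dim probes 18 were higher and 0 lower. Without non-stem cell epithelia replicate 1 the counts were 21 higher and 1 lower, and without replicate 2 they were 19 and 0. On the spike-in scale 1 gene was higher and 24 lower.

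Of 20 tested relatives and cofactors of the 10 genes, some of which are also in other lists, 7 rose, 4 fell and 9 did not pass, with a median of -0.05. The shares over all genes tested were 14.4% higher and 16.7% lower. Ier5l rose by 1.73 ± 0.16 (limma adjusted p = 0.0015). Dusp5, another phosphatase of ERK, was not well above background in stem cells and was above it on both non-stem arrays. It was at least 1.05-fold lower, against the lowest signal well above background (limma adjusted p = 0.0059), a call lost without non-stem cell epithelia replicate 2 (adjusted p = 0.067). Without non-stem cell epithelia replicate 1 the counts were 1 higher and 2 lower, and without replicate 2 they were 2 and 1. On the spike-in scale 0 were higher and 18 lower.

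In the signalling chain upstream, 31 genes were tested, of which 4 rose and 3 fell, with a median of -0.06. Over all genes tested, 14.4% were called higher and 16.7% lower. Those that rose included Srf, the serum response factor gene itself, which read 2.82 and 3.17 in stem cells against 1.54 and 1.58 in non-stem cell epithelia. Srf was 2.71-fold higher (1.44 ± 0.18, limma adjusted p = 0.0042). Elk4, one of its partners at CArG boxes, rose by 2.25 ± 0.29 (adjusted p = 0.0042), and Elk1, named after its value was seen, differed by 0.78 ± 0.18, also past the threshold. Map2k6, a kinase of the p38 branch, rose by 1.45 ± 0.16 (adjusted p = 0.0028), while Map2k1, the MEK1 kinase of the ERK branch, fell by 1.26 ± 0.17 (adjusted p = 0.0049). Without non-stem cell epithelia replicate 2 the calls of Srf, Elk4 and Map2k1 were lost (adjusted p = 0.051, 0.057 and 0.056), and the list had 1 higher and 0 lower. With the mean of a gene's probes Srf was at 0.91 and Elk4 at 1.16, both past the threshold. With normexp the list had 3 higher and 8 lower, and on the spike-in scale 0 and 28.

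Among 10 tested ERK feedback genes, 3 rose and 2 fell, with a median of 0.31. For these and the decay genes below, the shares over all genes tested were 14.4% higher and 16.7% lower. Errfi1, an inhibitor of the EGF receptor, rose by 1.48 ± 0.19 (limma adjusted p = 0.0044) and Etv4, an Ets factor, by 1.31 ± 0.22 (adjusted p = 0.011), while Dusp6 fell as given above. Leaving out 1 array gave 1 to 3 higher and 1 to 2 lower, with 1 higher without non-stem cell epithelia replicate 1, where Etv4 did not pass (adjusted p = 0.052), and 1 lower without replicate 2. On the spike-in scale 0 were higher and 8 lower. Of 17 tested genes of the CCR4-NOT complex and mRNA decay, with which Btg2 and Zfp36 act, 1 rose and 1 fell, and the median was -0.09. These were Cnot4 (0.59 ± 0.16, adjusted p = 0.044) and Cnot11 (-0.83 ± 0.18, adjusted p = 0.022). Cnot4 was not called when any 1 array was left out, with normexp or with the replicate block (adjusted p = 0.072). Cnot11 was not called without either non-stem array, without stem cells replicate 2 (adjusted p = 0.057) or with normexp (-0.19, adjusted p = 0.31). With normexp the list had 0 higher and 4 lower, and on the spike-in scale 0 and 17.

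Heat shock genes, another group that responds to tissue handling, had 5 of 12 tested genes higher and 0 lower, with a median of 0.42. Over all genes tested, 14.4% were higher and 16.7% lower. The other 7 did not pass, among them Hspa1a (-0.05 ± 0.16), Bag3 (-0.14 ± 0.15), Hsph1 (0.24 ± 0.15) and Dnajb4 (0.23 ± 0.25). Hspa1a, Bag3, Hsph1 and Dnajb4 were named after their values were seen. Hspb1 rose by 2.09 ± 0.15 (limma adjusted p = 0.00076) and Dnajb1 by 1.14 ± 0.18 (adjusted p = 0.0076), the latter not past the threshold without non-stem cell epithelia replicate 2 (adjusted p = 0.072). Leaving out 1 array gave 1 to 4 higher and 0 lower, with 2 without stem cells replicate 2 or non-stem cell epithelia replicate 1 and 1 without replicate 2 of the latter. With normexp 2 were higher and 2 lower, with the replicate block 3 were higher and 0 lower, and on the spike-in scale 0 were higher and 11 lower. Whether handling of the cells had a part in the values of the 10 genes was not tested.

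**Figure D4:**
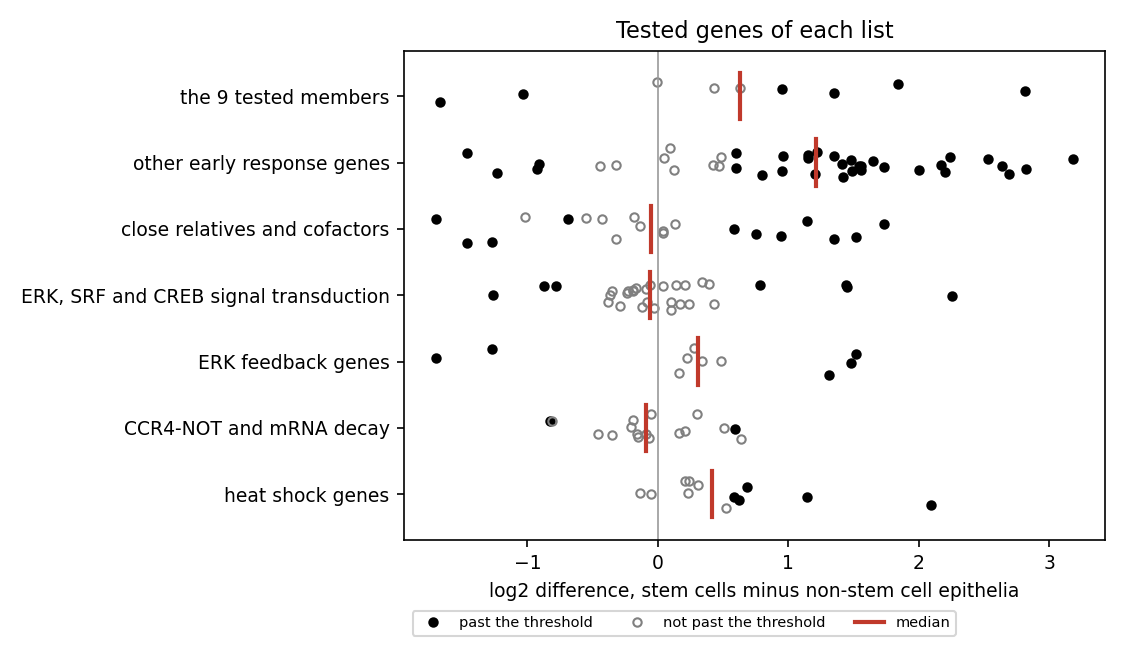
Log2 difference between stem cells and non-stem cell epithelia (x axis) for the tested genes of 6 lists and the 9 tested members (y axis). Filled points passed the limma threshold, open points did not, and red bars are medians. The medians are 0.63 for the members and 1.21 for the other early response genes, with the signalling chain at -0.06, all relative to the 75th percentile, while on the spike-in scale most of these genes were lower.

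The 9 tested members had a median log2 difference of 0.63, against 0 over all genes tested. Their groups did not overlap in 6 genes that were higher in stem cells and in 2 that were lower. Over all genes tested these shares were 35.1% and 36%. For the probes used, the replicate gap was at most 0.53 for stem cells and 0.23 for non-stem cell epithelia. The second Nr4a2 probe had a stem cell gap of 0.66. The test behind the 6 calls already weighs this spread, so the gaps lend the calls no further weight.

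The motif matches were set beside the array results. CArG boxes (CC, a run of A or T, GG) were found in Egr2, which rose, and in Zfp36, which did not pass. Egr2 has 5 annotated start sites, and 4 of its windows hold a box, starting at position -72, -73 or -133 from the start site. All but the first of these windows overlap and hold the same box, that of the second stretch above. That of Zfp36 starts at -58. A CArG box stood in 1.81% of 27025 genes with a promoter window. The full element TGACGTCA was found in Dusp1, which rose, and in Btg2, which did not pass, at -143 and -166, and it stood in 2.03% of genes. TGACG, which the full element contains, was present in 5 of the 7, with 4 matches each in Nr4a1 and Nr4a2, of which the Nr4a1 stretch above shows the last 2, and in 23.1% of genes.

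The AP-1 site TGANTCA and the Nr4a site AAAGGTCA were not matched in the 7 members. They occur in 8.97% and 1.70% of genes. The Egr site occurs in 3.93% and the NF-kappaB site, matched in Egr2, Nr4a1 and Ier3, in 9.55%. Both strands were searched for every motif. Of the other early response genes, 32 were in the table and 0 had a CArG box within these 300 bases, which says only that the letters are not in this window.

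**Figure D5:**
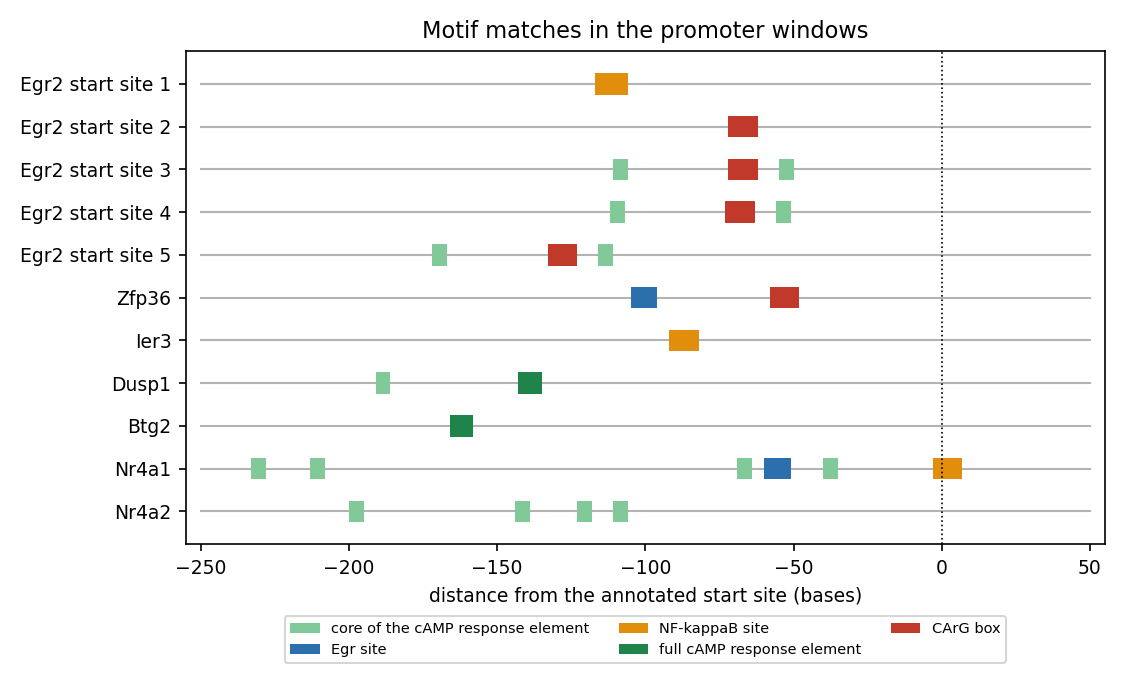
Positions of motif matches (coloured bars) in the promoter windows of 7 genes, as distance from the annotated start site in bases (x axis), with 5 start sites for Egr2. Some Egr2 windows overlap, so the same match is drawn in several rows. Egr2 and Zfp36 carry CArG boxes, Dusp1 and Btg2 the full cAMP response element, and Nr4a1 and Nr4a2 4 copies each of its core.

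Shares over the whole array are given for scale. Of 9615 tested genes with a promoter window, 13.3% were higher and 19.2% lower. Of 164 with a CArG box, 29 (17.7%) were higher and 26 (15.9%) lower, with a median log2 difference of 0.05 against -0.05 for all 9615. For TGACGTCA, 37 of 345 were higher and 62 (18.0%) lower, with a median of -0.07. Of 730 genes with an Egr site 122 (16.7%) were higher and 143 (19.6%) lower. These shares are descriptions, with no test.

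The labels were checked against marker genes. All 8 general epithelial markers were tested, of which 2 rose and 2 fell. Epcam fell by 1.22 ± 0.19 while Krt18 rose by 0.80 ± 0.15. Of 8 basal and myoepithelial markers 4 rose, led by the keratin genes Krt17 (3.79 ± 0.16), Krt14 (3.17 ± 0.16) and Krt5 (3.16 ± 0.20). Mylk, a smooth muscle gene, also rose (0.93 ± 0.15). The other 4 did not pass, among them the smooth muscle genes Acta2 (-0.10 ± 0.16), Myh11 (-0.21 ± 0.18) and Cnn1 (-0.36 ± 0.18). Acta2, Myh11 and Cnn1 were named after their values were seen. Of 8 acinar markers 6 fell and 0 rose, with Bpifa2 falling by 4.54 ± 0.19. Of 8 duct markers 4 rose and 1 fell. Klk1 rose by 3.25 ± 0.16 and Egf fell by 1.26 ± 0.16, and the summed level of the duct markers, in units of the 75th percentile, was 351 and 367 in stem cells against 105.3 and 108.9 in non-stem cell epithelia. Of 14 endothelial markers 8 were tested, of which 5 rose and 1 fell, and Cdh5, Tie1, Emcn and Esam were above background on no array. The summed level of the endothelial markers was 22.5 and 21.9 in stem cells against 23.1 and 24.2 in non-stem cell epithelia. That sum includes Vwf, which fell. Its log2 signals were 1.16 and 0.38 in stem cells against 3.57 and 3.66 in non-stem cell epithelia. The median log2 difference of the 8 tested was 1.89, and 2 did not pass. Among those that rose were Robo4 (2.36 ± 0.20) and Egfl7 (1.76 ± 0.27). Cd34 also rose, by at least 3.35-fold, and only the 2 stem cell arrays had it above background. Of 14 leukocyte markers 8, among them Ptprc, were above background on no array, and of the 6 tested 1, Itgam, rose (0.86 ± 0.19). The summed level of the leukocyte markers was 78.6 and 60.4 against 38.3 and 43.2. Most of that sum was Itgam, with log2 signals of 6.15 and 5.77 in stem cells against 5.01 and 5.18 in non-stem cell epithelia. The other 5 tested leukocyte markers did not pass. Of 8 fibroblast markers 5 (Col1a1, Lum, Pdgfra, Pdgfrb and Thy1) were above background on no array. Of the 2 tested, Dcn rose (2.15 ± 0.16) and Col1a2, named after its value was seen, did not pass (-0.49 ± 0.17). The summed level of the fibroblast markers was 19.7 and 21.2 against 8.27 and 8.88. Of 6 erythroid markers 4 were tested and fell, and the summed level was 56.8 and 57.6 against 237.2 and 272.9. The part of any of these cell types in the values of the early genes was not tested, and in such bulk samples more cells expressing a gene and more RNA per cell cannot be told apart.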

How the data were processed

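Each array's deposited file gives linear intensity per spot, made by Agilent Feature Extraction 10.7.3.1 on mm9, per the file headers. The submitters' processing notes name version 9.1. The 4 arrays share 1 slide and 1 scan time. The deposited series table holds log2 values by the authors, with centring and baseline unstated, with column medians of -0.27 and -0.55 for stem cells and -0.83 and -0.75 for non-stem cell epithelia. Between arrays, its differences matched the scanner differences with a correlation of 1.00 across probes.

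Control and outlier spots were left out. Log2 processed signals were shifted by each array's 75th percentile, and spots of a probe averaged. Probes entered the test if 2 or more of the 4 arrays showed them well above background, and a gene was its brightest tested probe. Names came from RefSeq accessions (26582 probes) or the array. Groups were compared with limma 3.58.1 in R 4.3.3 (two-sided, 5.59 degrees of freedom). The number of arrays limits the precision.

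The members and lists were chosen with earlier results of these data known. Genes named were the members, up to 4 genes of smallest p past the threshold in each list, and 12 others by name. Others are marked. Alternatives were quantile normalization, the percentile over detected probes, normexp (offset 50), the deposited log2 values, other filters, an intensity trend, the replicate number as a block, other treatment of probes and leaving out each array. The spike-in scale and a crossed block were chosen after seeing the data. 1 further list of marker genes is not reported here.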

Additional observations from a re-analysis of the deposited data

Results flagged for a closer look

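Control spots for spike-in RNA stand outside the comparison of genes and carried a difference between the groups. Of 10 spike-ins, the 2 dimmest and the brightest were set aside. The other 7 all read higher in stem cells, on each array of that group, with a median log2 difference of 2.26 once the percentile shift was made (1.80 to 2.47) and 1.34 without it. Among the 9 tested early genes, 1 (Egr2) exceeded 2.26. The cause was not tested.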

How the results depend on the processing

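Precision is limited by 2 arrays per group. Where 1 array is left out, its group has 1 array, and the adjusted p then rests on the spread of the other group alone. The directions of Egr1, Egr2, Dusp1, Ier3, Nr4a2 and Ier2 were the same under every alternative other than the spike-in scale, where Egr2, Nr4a2 and Ier2 kept theirs and Egr1, Dusp1 and Ier3 turned. The calls of Egr1, Egr2, Dusp1 and Nr4a2 held under every alternative other than that scale, where that of Nr4a2 held too. Without a filter on dim probes more genes are tested, and 1607 were called (850 higher, 757 lower, against 5393, 2497 and 2896), with 1 member lower. Ier2 (-1.03, adjusted p = 0.078) and Ier3 (0.95, adjusted p = 0.095) then did not pass, nor did Nab2, Ier5, Zfp36l1, Zfp36l2, Dusp5, Dusp6, Map2k1, Srf, Etv4, Errfi1, Cnot4, Cnot11, Tnf, Dnajb1, Hspe1 and Hsp90ab1 (adjusted p of 0.051 to 0.12). Leaving out an array gave 1556 to 5666 calls (680 to 2535 higher, 876 to 3131 lower), with 1556 without non-stem cell epithelia replicate 2 and 2145 without replicate 1. It gave 3 to 5 members higher and 1 to 2 lower, with 1 lower without either non-stem array. The log2 difference then ranged from -1.15 to -0.91 for Ier2, 0.80 to 1.09 for Ier3, -0.07 to 0.06 for Btg2 (0.05 without stem cells replicate 1) and 0.36 to 0.89 for Zfp36.

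With normexp 4504 genes were lower and 29.2% of calls were higher, against 46.3% here and 59.4% with the percentile over detected probes, which moved the median of all genes by 0.13. Normexp gave Btg2 -0.46, Nr4a1 -0.03 and Dusp5 0.13, and ended the calls of Nab2 (0.09), Ier5 (-0.32), Tnf (-0.26), Cnot4 (0.27), Cnot11 (-0.19), Hspe1 (0.20) and Hsp90ab1 (0.13). The percentile over detected probes gave Nr4a1 0.56 and Btg2 0.13, and quantile normalization gave Btg2 0.08. Under an intensity trend with robust variances Nr4a1 (0.43) and Zfp36 (0.63) passed, and Zfp36 (0.63) also under a filter on all 4 arrays. The percentile over detected probes also ended the calls of Tnf and Cnot11. The mean of a gene's probes gave Btg1 0.11, Srf 0.91 and Elk4 1.16, and ended the calls of Cnot11 (-0.39) and Hspe1 (0.43).

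Scaled on spike-ins, 16813 genes were called, 131 higher and 16682 lower, with 0 members higher and 7 lower, and 0.779% of calls were higher. The differences were 0.55 for Egr2, -0.43 for Egr1, -1.84 for Nr4a1, -3.93 for Nr4a2, -3.30 for Ier2, -1.32 for Ier3, -2.27 for Btg2, -0.92 for Dusp1 and -1.64 for Zfp36. Of the other genes named, Fos was at -1.79, Jun -0.85, Nab2 -1.69, Ier5l -0.53, Zfp36l1 -1.32, Zfp36l2 -1.12, Map2k6 -0.82, Srf -0.83, Elk4 -0.02, Etv4 -0.95, Errfi1 -0.78, Cnot4 -1.68, Cxcl1 -0.66, Hspb1 -0.18, Hsp90ab1 -1.68, Dnajb1 -1.13 and Hspe1 -1.59.

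The labels share replicate numbers between groups but do not say that a number marks a shared animal or day, and deviations of same-numbered arrays correlated at -0.10. With the replicate block 5357 genes were called, with 4 members higher and 2 lower, and the block changed no member's call. It ended those of Nab2 (adjusted p = 0.076), Cnot4 (0.072) and Hsp90ab1 (0.077), and 3 heat shock genes were higher in place of 5. The crossed block ended those of the same named genes (adjusted p of 0.053, 0.07 and 0.053). With the numbers crossed, 4373 were called, with 4 members higher and 2 lower. The cause of these shifts was not tested.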
